A study of Caenorhabditis elegans with 59 samples.

Results

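Transcripts of the mitochondrial genome of Caenorhabditis elegans were identified by their gene IDs, which begin with MTCE. The deposited tables held 36 such IDs among 40070 distinct IDs. They numbered 12 of 22686 rows in both the table of polyA-selected and total RNA and the generation 1 mRNA table, and 36 of 23763 rows in the generation 50 mRNA table. Small RNA tables listed 12 of 20475 rows at generation 1, 11 of 23411 at generation 50, and none of 12423 in a comparison of prg-1(tm872), strain WM161, with the wild type at 68 h. The RefSeq annotation of assembly WBcel235 lists 36 mitochondrial entries, 12 protein-coding, 2 rRNA and 22 tRNA. Only MTCE.21 is paired with a gene name in the files, ctb-1, the cytochrome b subunit of respiratory complex III; the other IDs are given as deposited, without names or roles.

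The mitochondrial genome of animals encodes a few core subunits of the respiratory chain and the ATP synthase, the mitochondrial ribosomal RNAs and a set of tRNAs. All other mitochondrial proteins, including the ribosomal proteins that assemble with those rRNAs and the polymerase that transcribes the genome, come from nuclear genes. The mutated genes act in the germline: prg-1 encodes the PIWI Argonaute that binds piRNAs, and mut-14 and smut-1 encode DEAD-box RNA helicases of the mutator complex, which is needed to amplify secondary small RNAs.

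RNA came from whole animals grown at 20 °C on Escherichia coli OP50, in 59 libraries over 6 tables. The prg-1 mutant, strain SX922, carried prg-1(n4357) on chromosome I. The mut-14 smut-1 mutant, strain GR1948, carried mut-14(mg464) and smut-1(tm1301) on chromosome V together with unc-119(ed3) on III. The triple mutant, strain GR2070, combined prg-1(n4357) with mut-14(mg464) and smut-1(tm1301). N2 was the wild type. The unc-119(ed3) allele was in GR1948 alone, so every comparison with mut-14 smut-1 also differs by it. Generation 1 animals, and the wild type animals used for polyA-selected and total RNA, were gravid adults of 72 h; at generation 50, where the age is not given, each genotype was represented by 3 separately labelled lines. Each group had 3 libraries, except 2 of mut-14 smut-1 in generation 1 small RNA. At generation 1 and in the polyA comparison nothing states that replicates were separate cultures, so p-values there measure the spread between these libraries, which may be technical.

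Depth was about 20980357 to 51988656 reads per library in the polyA comparison, 12053386 to 23482367 in generation 1 mRNA, 14284908 to 63851577 in generation 50 mRNA and 4417660 to 13038182 in generation 50 small RNA. The mutated genes followed the labels, and at generation 1 too each was lower in every library of the mutants that carry its allele than in any wild type library. At generation 50, prg-1 mRNA was 3391 to 4207 in prg-1 and 3371 to 3771 in the triple mutant, against 9645 to 10660 in the wild type. The level of mut-14 mRNA was 64.6 to 103.2 in mut-14 smut-1 and 78.7 to 101.3 in the triple mutant, against 2033 to 2097 in the wild type, and that of smut-1 was 372.4 to 479.1 in mut-14 smut-1 and 394 to 480.1 for the triple mutant, against 2133 to 2422 in the wild type. All mRNA values are the authors' normalized read counts, not divided by gene length, so levels are not compared between IDs. A fold change is a difference of log2(value + 1), and an ID was called when its Benjamini-Hochberg adjusted p from limma, taken over all rows tested in the table, was under 0.05.

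Of the 36 IDs, 16 had a value above 0 in generation 50 mRNA and 14 reached the level needed for a test, a value of 10 in at least 3 libraries. The other 20 were listed at 0 in all 12 libraries of that table, and MTCE.14 and MTCE.32 did not exceed 1.16 and 0.533. In the polyA comparison 11 of 12 IDs were tested, and in generation 1 mRNA 10 of 12. MTCE.35 was at 0 in every generation 1 library and at 0 to 1.37 in the polyA comparison, whereas at generation 50 it was between 20773 and 62391 in every library. The tables were normalized separately and the counting method is not given, so this difference between tables cannot be told apart from the way rows were counted. MTCE.4 was between 1.45 and 17.4 at generation 1 and was not tested there.

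The 12 IDs common to the mRNA tables took up about 1% of the normalized counts of most libraries. At generation 1 they made up 1.005% ± 0.108 of the library in prg-1, 1.11% ± 0.0888 for mut-14 smut-1 and 1.11% ± 0.0168 for the triple mutant, against 0.873% ± 0.0352 in the wild type (SD, n = 3 each). At generation 50 the share was 1.195% ± 0.0781 for prg-1 and 2.09% ± 0.574 in mut-14 smut-1, with 1.17% ± 0.107 for the triple mutant, against 1.101% ± 0.137 in the wild type (SD, n = 3 each). The mut-14 smut-1 lines stood at 2.18%, 2.62% and 1.48%, all above the other 9 generation 50 libraries. With all 36 IDs, which adds MTCE.7 and MTCE.33, the generation 50 share was 7.19% ± 0.915 for prg-1 and 13.07% ± 3.26 in mut-14 smut-1, with 7.43% ± 0.694 for the triple mutant, against 6.96% ± 0.907 in the wild type (SD, n = 3 each). In whole animals, a change in the number of cells or mitochondria of a kind and a change of RNA in each cannot be told apart.

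**Figure D1:**
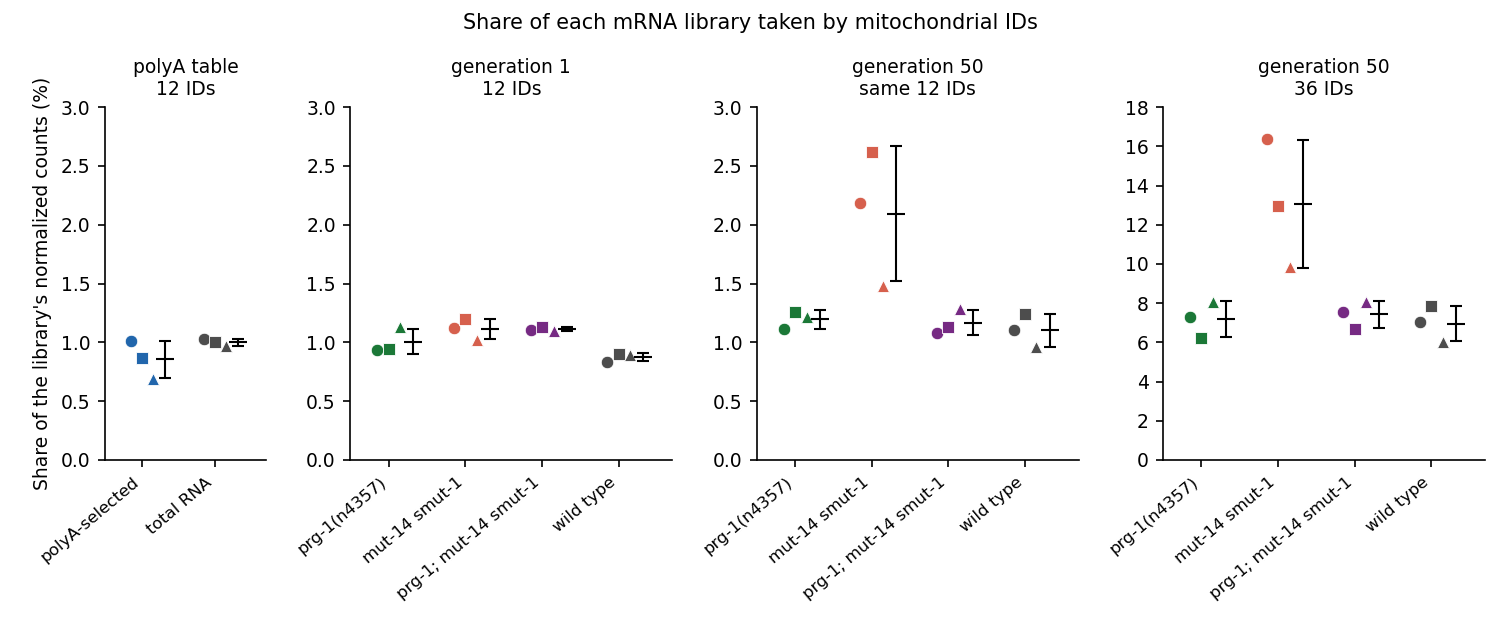
Share of each library's normalized counts held by mitochondrial transcripts, in percent. Points are single libraries (circle, square and triangle for replicate or line 1, 2 and 3), bars the mean ± SD of 3 libraries, and prg-1; mut-14 smut-1 is the triple mutant; the panels show the 12 shared IDs in each mRNA table and all 36 IDs at generation 50, where the 3 mut-14 smut-1 lines, between 9.86% and 16.4%, lie above every other library.

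The polyA comparison set polyA-selected against total RNA of the wild type. The mitochondrial transcripts did not move as a block: 2 of 11 tested IDs were higher and 3 lower in polyA-selected RNA, while 5.47% of all rows tested were called higher, 10.8% lower and 16.3% in either direction. MTCE.16 stood at 1815, 1499 and 1329 in polyA-selected RNA, against 864, 933 and 939 in total RNA. MTCE.34 stood at 1250, 1016 and 825 in polyA-selected RNA, against 704, 730 and 718 in total RNA. In neither ID did the groups overlap, and the differences were 0.75 ± 0.10 (SE; limma adjusted p = 3.01e-05) for MTCE.16 and 0.50 ± 0.11 (SE; limma adjusted p = 0.00568) for MTCE.34.

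The 3 IDs that were lower in polyA-selected RNA also showed no overlap. MTCE.26 had 102706, 81392 and 78221 in polyA-selected RNA, against 139044, 128392 and 127965 in total RNA, a difference of -0.60 ± 0.14 (SE; limma adjusted p = 0.00543). MTCE.25 had 11008, 8960 and 7904 in polyA-selected RNA, against 14746, 13775 and 13038 in total RNA, a difference of -0.59 ± 0.10 (SE; limma adjusted p = 0.000762). MTCE.11 had 13726, 11040 and 9451 in polyA-selected RNA, against 16138, 15104 and 14707 in total RNA, a difference of -0.44 ± 0.11 (SE; limma adjusted p = 0.0114); without the total RNA replicate 1 its adjusted p was 0.0555. Among all rows tested, 19.5% were higher and 15.8% lower without overlap.

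The remaining 6 tested IDs did not pass the threshold, with differences between -0.16 for ctb-1 (MTCE.21) and 0.21 for MTCE.4. Among them, ctb-1 had 50575, 42724 and 37641 in polyA-selected RNA, against 51457, 48088 and 45872 in total RNA. In 10 of the 11 tested IDs, MTCE.3 being the exception, replicate 1 was the highest and replicate 3 the lowest of the polyA-selected libraries, and the share held by the 12 IDs was 1.01%, 0.866% and 0.692% in these libraries, against 1.03%, 0.999% and 0.969% in total RNA. The median difference of the 11 tested IDs was 0.08, against 0.07 over all rows tested.

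**Figure D2:**
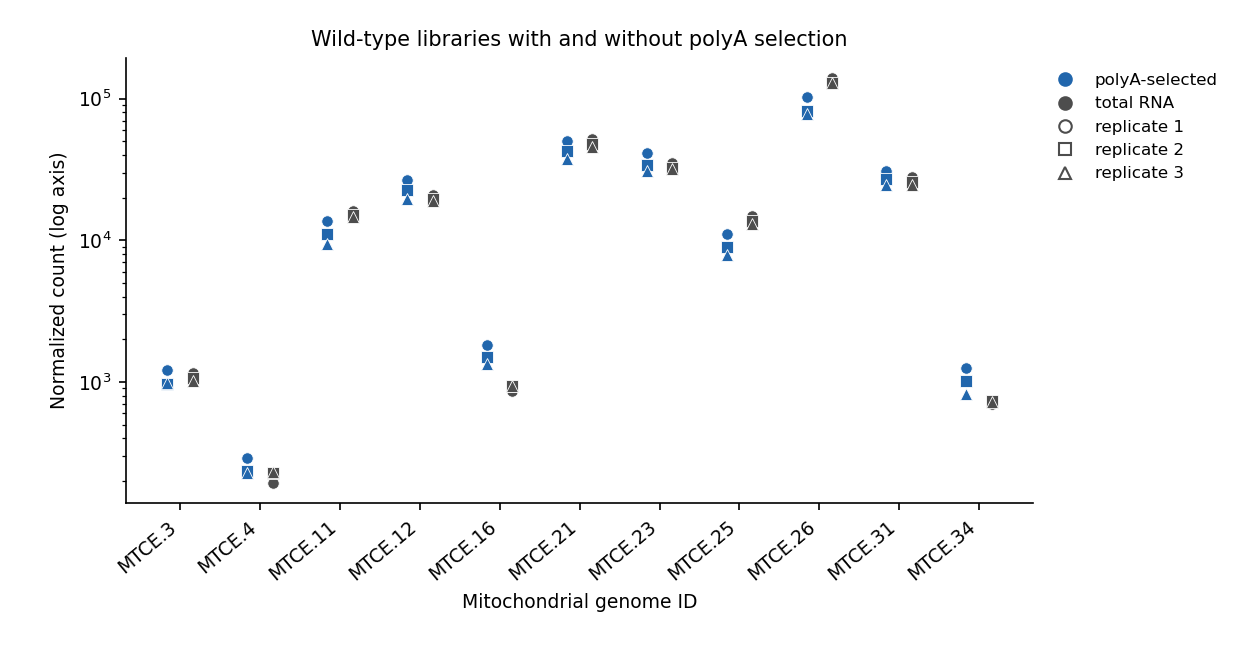
Normalized counts of the 11 tested mitochondrial IDs in wild type polyA-selected (left) and total RNA (right), on a log axis; each point is 1 library. MTCE.16 and MTCE.34 are higher, and MTCE.11, MTCE.25 and MTCE.26 lower, in all 3 polyA-selected libraries.

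Nuclear genes for mitochondrial proteins were taken as lists for comparison. In polyA-selected against total RNA, 11 of 70 tested mitochondrial ribosomal protein genes were higher and 5 lower, 3 of 14 complex I genes and 3 of 11 ATP synthase genes were higher with none lower, and none of 5 complex II or 7 complex IV genes were called. The median difference of the ribosomal protein genes was 0.14, against 0.07 over all rows tested. Among the 5 lower was mrps-31. It averaged 1071 ± 78.5 in polyA-selected RNA and 2011 ± 56.0 in total RNA (SD, n = 3 each), a difference of -0.91 (limma adjusted p = 1.52e-07). Of 11 genes of the mitochondrial stress response and quality control, 1 was higher and 2 lower. The chaperonin gene hsp-60 averaged 9493 ± 609 in polyA-selected RNA and 16240 ± 772 in total RNA (SD, n = 3 each), a difference of -0.78 (limma adjusted p = 2.85e-06).

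At generation 1, mitochondrial transcripts were called less often than all rows in prg-1 and in mut-14 smut-1 against the wild type. The 1 called in prg-1 was higher, and the 5 called in mut-14 smut-1 were slightly higher. In prg-1 against the wild type, 1 of 10 tested IDs was called, MTCE.26, which was higher, while 25.6% of all rows tested were called higher and 57.6% in either direction. It had 80676, 79524 and 90709 in prg-1, against 70128, 74957 and 73181 in the wild type, without overlap (27.2% of all rows were higher without overlap), a difference of 0.20 ± 0.06 (SE; limma adjusted p = 0.0155). The call was lost without wild type replicate 1, when no ID was called, and without prg-1 replicate 3, when 3 other IDs were called lower. The prg-1 libraries themselves differed: the median of the 11 detected IDs relative to the wild type mean was -0.21 and -0.24 in replicates 1 and 2 and 0.17 in replicate 3.

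In mut-14 smut-1 against the wild type, 5 of 10 tested IDs were higher and none lower, while 38.1% of all rows tested were called higher and 78% in either direction. MTCE.25 had 8803, 9335 and 7849 in mut-14 smut-1, against 6922, 7531 and 7230 in the wild type (0.26 ± 0.08, SE; limma adjusted p = 0.00563). MTCE.31 had 16930, 18058 and 16091 in mut-14 smut-1, against 14667, 15238 and 14408 in the wild type (0.20 ± 0.06, SE; limma adjusted p = 0.00732). The transcript of ctb-1 (MTCE.21), the cytochrome b subunit, had 33273, 36103 and 31188 in mut-14 smut-1, against 28822, 30788 and 30185 in the wild type (0.16 ± 0.07, SE; limma adjusted p = 0.0345).

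MTCE.11 and MTCE.23 were the other IDs called, at 0.23 ± 0.08 and 0.25 ± 0.09 (SE; limma adjusted p = 0.0143 and 0.0173). All 5 called IDs were higher in every mut-14 smut-1 library than in any wild type library, which was the case for 40.1% of all rows tested. All 10 tested IDs had a positive difference, and their median was 0.20, against 0.04 over all rows tested. Scaling to library totals made these medians 0.42 and 0.26. It gave 7 called IDs, while 46.3% of all rows were then called higher and 28.8% lower. MTCE.26 did not follow, with 73088, 79222 and 71292 in mut-14 smut-1, against 70128, 74957 and 73181 in the wild type (0.03, limma adjusted p = 0.638). Without mut-14 smut-1 replicate 2, 2 IDs were called.

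In the generation 1 triple mutant against mut-14 smut-1 no ID was called by limma, none had an unadjusted p under 0.05, and 11.5% of all rows were called. Against prg-1, by contrast, 7 of 10 tested IDs were higher in the triple mutant and 1 was lower, while 25.7% of all rows were called higher, 28.2% lower and 53.9% in either direction. MTCE.25 had 8777, 9214 and 8953 in the triple mutant, against 6915, 6323 and 8140 in prg-1 (0.34 ± 0.08, SE; limma adjusted p = 0.00129). MTCE.12 had 11021, 11390 and 11932 in the triple mutant, against 8200, 8182 and 11149 in prg-1 (0.33 ± 0.09, SE; limma adjusted p = 0.00709). The lower ID was MTCE.26, with 70535, 78604 and 73201 in the triple mutant, against 80676, 79524 and 90709 in prg-1 (-0.17 ± 0.06, SE; limma adjusted p = 0.033), and this call was lost with library totals (-0.07, limma adjusted p = 0.319). Only 3 of the higher IDs and MTCE.26 were free of overlap between the groups, which 29.2% of all rows were in the higher and 29% in the lower direction. The count of called IDs was 4 without prg-1 replicate 1, without prg-1 replicate 2 or without any 1 of the triple mutant libraries. The prg-1 effect did not differ between the mutator mutant background and that of the wild type for any tested ID by limma (1 with an unadjusted p under 0.05; 37.1% of all rows called).

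**Figure D3:**
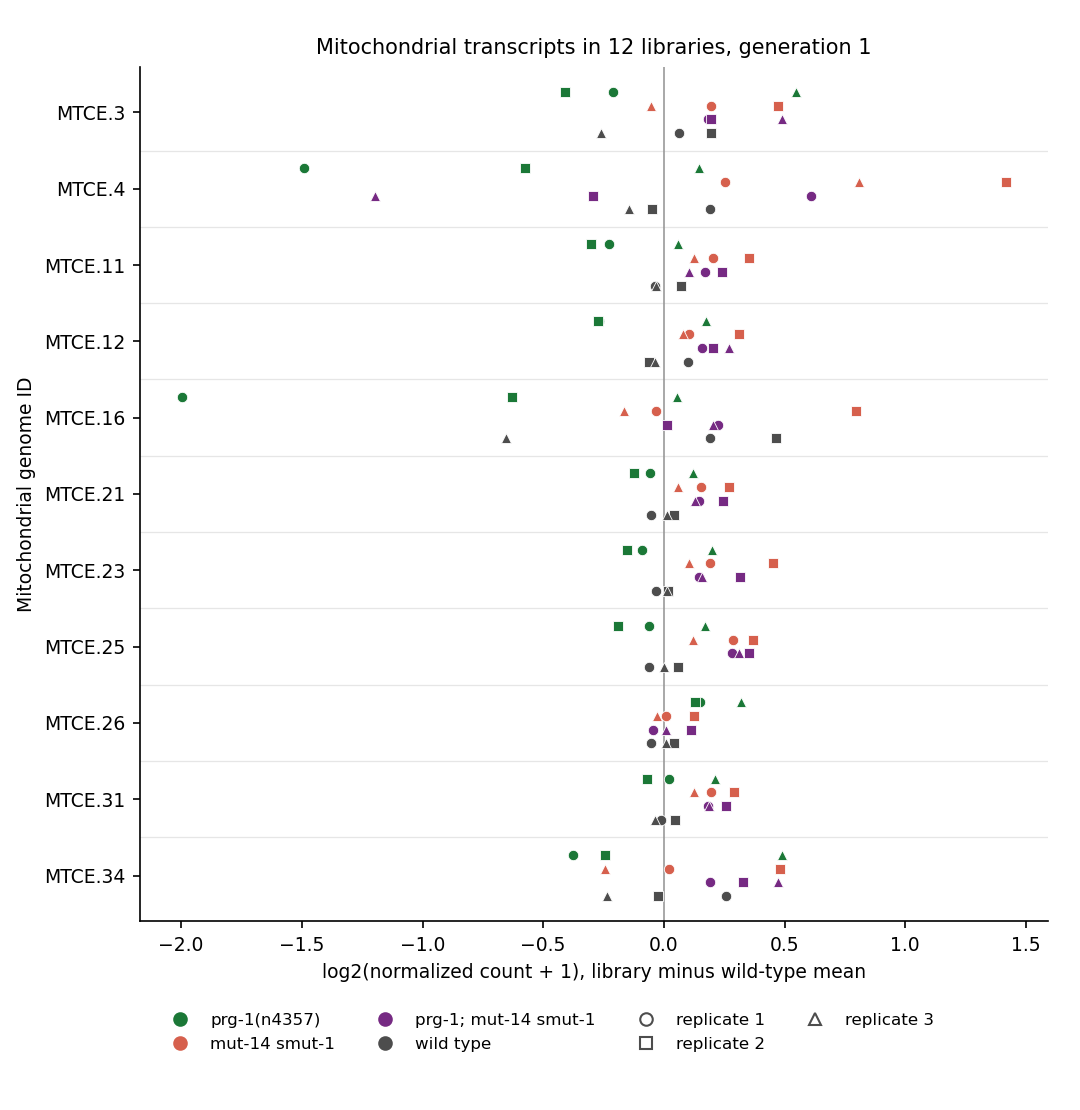
Generation 1: log2(value + 1) of each library minus the wild type mean, for each mitochondrial ID. Colours stand for genotypes and marker shapes for replicates 1, 2 and 3; apart from MTCE.4 and MTCE.16, which had few counts, libraries lie within 0.55 of 0, and prg-1 replicates 1 and 2 lie below replicate 3 in each ID.

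Most nuclear genes for mitochondrial ribosomal proteins were lower in mut-14 smut-1 at generation 1, in a number that turned on the scaling. Of 70 tested, 67 fell and none rose in mut-14 smut-1 against the wild type, with a median of -0.35, while 39.9% of all rows tested were called lower. With library totals 31 fell and none rose, while 28.8% of all rows were called lower. In prg-1 against the wild type, 46 of the 70 fell and none rose, while 32% of all rows were called lower; with library totals 12 fell and none rose, a share near the 18.3% of all rows then called lower. Examples in mut-14 smut-1 were mrps-23, which averaged 304 ± 9.18 in mut-14 smut-1, against 574 ± 30.8 in the wild type (SD, n = 3 each; -0.91 ± 0.08, SE; limma adjusted p = 2.26e-08), and mrpl-50, which averaged 1015 ± 69.9 in mut-14 smut-1, against 1469 ± 22.8 in the wild type (SD, n = 3 each; -0.54 ± 0.05, SE; limma adjusted p = 1.18e-07).

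Among factors for upkeep, transcription and translation of the mitochondrial genome, 1 of 11 rose and 8 fell in mut-14 smut-1 against the wild type, and with library totals 3 rose and 7 fell. The mitochondrial RNA polymerase gene rpom-1 averaged 1183 ± 17.5 in mut-14 smut-1, against 1638 ± 57.1 in the wild type (SD, n = 3 each; -0.47 ± 0.05, SE; limma adjusted p = 5.18e-07). Nuclear respiratory chain genes were mixed, and their split turned on the scaling: for complex I, 3 of 14 rose and 3 fell (11 and 2 with library totals), for complex IV 1 of 7 rose and 1 fell (6 and none with library totals), and for the ATP synthase 2 of 11 rose and 3 fell (6 and 1 with library totals). Of all rows tested, 38.1% were called higher and 39.9% lower, and with library totals 46.3% and 28.8%. The cytochrome c gene cyc-2.2 averaged 224 ± 26.8 in mut-14 smut-1, against 23.9 ± 9.60 in the wild type (SD, n = 3 each; 3.25 ± 0.24, SE; limma adjusted p = 4.24e-09).

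Markers of tissues also moved in the generation 1 contrasts. In mut-14 smut-1 against the wild type, all 31 tested msp genes, which encode major sperm proteins, rose, and the sum of all 35 listed was 17663 to 20798 in mut-14 smut-1, against 1820 to 2591 in the wild type. All 8 body wall muscle markers rose (summed 88156 to 115580 in mut-14 smut-1, against 50345 to 56448 in the wild type), and all 8 oocyte and eggshell markers fell (summed 88800 to 102200 in mut-14 smut-1, against 143520 to 157270 in the wild type). Of the germline markers, 5 of 6 fell, and of the intestine markers 3 of 9 rose and 6 fell. Markers also moved in the triple mutant against prg-1. All 31 tested msp genes were higher, with a median of 1.76 and a sum over the 35 of 26336 to 31955 in the triple mutant, against 7690 to 8537 in prg-1. Body wall muscle markers summed to 78550 to 103640 in the triple mutant, against 66179 to 84653 in prg-1, with 3 of 8 higher. Lower in the triple mutant were 7 of 8 oocyte and eggshell markers, with sums of 88181 to 99723 in the triple mutant, against 115640 to 128600 in prg-1, and all 6 germline markers, with sums of 18319 to 20849 in the triple mutant, against 23323 to 26515 in prg-1. Of 9 intestine markers 2 were higher and 5 lower, with sums of 549490 to 770000 in the triple mutant, against 755000 to 1028900 in prg-1. Markers moved in the remaining generation 1 contrasts too. In prg-1 against the wild type all 31 tested msp genes and all 8 body wall muscle markers were higher. Their medians were 1.94 and 0.41, against 3.14 and 0.89 in mut-14 smut-1. Of the oocyte and eggshell markers 6 of 8 were lower in prg-1, as were 4 of 6 germline markers. The medians of these lists were -0.28 and -0.22, against -0.70 and -0.54 in mut-14 smut-1. In the triple mutant against mut-14 smut-1, 24 of 31 msp genes were higher and 4 of 8 body wall muscle markers lower. The part of these markers in the generation 1 results on mitochondrial transcripts was not tested.

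At generation 50 the mitochondrial transcripts of mut-14 smut-1 were higher than the wild type mean in all 14 tested IDs in each line, by amounts that differed widely between lines. In mut-14 smut-1 against the wild type 10 of 14 tested IDs were higher and none lower, while 16.5% of all rows tested were called higher and 27.8% in either direction. The median difference of the 14 IDs was 0.92, against 0.01 over all rows tested. In 13 of the 14 IDs every mut-14 smut-1 line exceeded every wild type line, which 21.1% of all rows did. Line by line, the median over the 14 IDs relative to the wild type mean was 1.09 in line 1, 1.35 in line 2 and 0.39 in line 3.

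The largest differences were in MTCE.16 and MTCE.34. MTCE.16 had 6063, 9606 and 281 in mut-14 smut-1 lines 1, 2 and 3, against 178, 147 and 132 in the wild type (4.06 ± 0.96, SE; limma adjusted p = 0.0113). MTCE.34 had 7077, 50999 and 415 in mut-14 smut-1, against 388, 337 and 362 in the wild type (3.87 ± 1.21, SE; limma adjusted p = 0.0341). In both, all 3 lines were above every wild type line, lines 1 and 2 by far more than line 3, which was 0.89 above the wild type mean for MTCE.16 and 0.20 above it for MTCE.34 on the log2 scale. The MTCE.34 call was lost when any wild type line, or mut-14 smut-1 line 1 or 2, was left out.

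The other called IDs differed less from the wild type. MTCE.11 had 28853, 49762 and 18745 in mut-14 smut-1, against 14208, 14390 and 13415 in the wild type (1.098 ± 0.269, SE; limma adjusted p = 0.0129). MTCE.23 had 75225, 107901 and 48024 in mut-14 smut-1, against 35418, 36662 and 34248 in the wild type (1.04 ± 0.24, SE; limma adjusted p = 0.00976). The ctb-1 transcript (MTCE.21), which encodes cytochrome b, had 95742, 121942 and 61153 in mut-14 smut-1, against 49906, 52529 and 46821 in the wild type (0.85 ± 0.22, SE; limma adjusted p = 0.0166). These IDs shared one order of the lines, line 2 highest and line 3 lowest.

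MTCE.35 had 50190, 62391 and 30510 in mut-14 smut-1, against 22816, 25213 and 22514 in the wild type (0.96 ± 0.23, SE; limma adjusted p = 0.0125). MTCE.7 had 2562235, 2237716 and 1449286 in mut-14 smut-1, against 1131439, 1176264 and 1003455 in the wild type (0.88 ± 0.23, SE; limma adjusted p = 0.0181). MTCE.26 had 250887, 230612 and 160143 in mut-14 smut-1, against 132500, 138913 and 121688 in the wild type (0.68 ± 0.18, SE; limma adjusted p = 0.0193). For MTCE.7 and MTCE.26 line 1, not line 2, was the highest.

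MTCE.25 had 25985, 17179 and 15188 in mut-14 smut-1, against 12189, 12649 and 10919 in the wild type (0.67 ± 0.19, SE; limma adjusted p = 0.0232). MTCE.31 had 51175, 40737 and 42525 in mut-14 smut-1, against 33331, 32560 and 30919 in the wild type (0.47 ± 0.13, SE; limma adjusted p = 0.0234). The remaining 4 tested IDs did not pass the threshold. MTCE.12 had 32888, 38481 and 29926 in mut-14 smut-1, against 25497, 27881 and 22509 in the wild type, without overlap (0.41, limma adjusted p = 0.0512).

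MTCE.33 was highest in line 1, with 1503238, 673292 and 856252 in mut-14 smut-1, against 621488, 644328 and 591896 in the wild type (0.62, limma adjusted p = 0.0935). MTCE.3 was by far the highest in line 2, with 517, 6349 and 314 in mut-14 smut-1, against 213, 263 and 216 in the wild type (2.13, limma adjusted p = 0.0703). Lines 1 and 3 were also above every wild type line for MTCE.3, and without line 2 the difference was 0.81 and was called (limma adjusted p = 0.0454). MTCE.4, the ID whose groups overlapped, had 58.8, 667 and 32.8 in mut-14 smut-1, against 19.6, 27.8 and 40.7 in the wild type (1.92, limma adjusted p = 0.121).

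**Figure D4:**
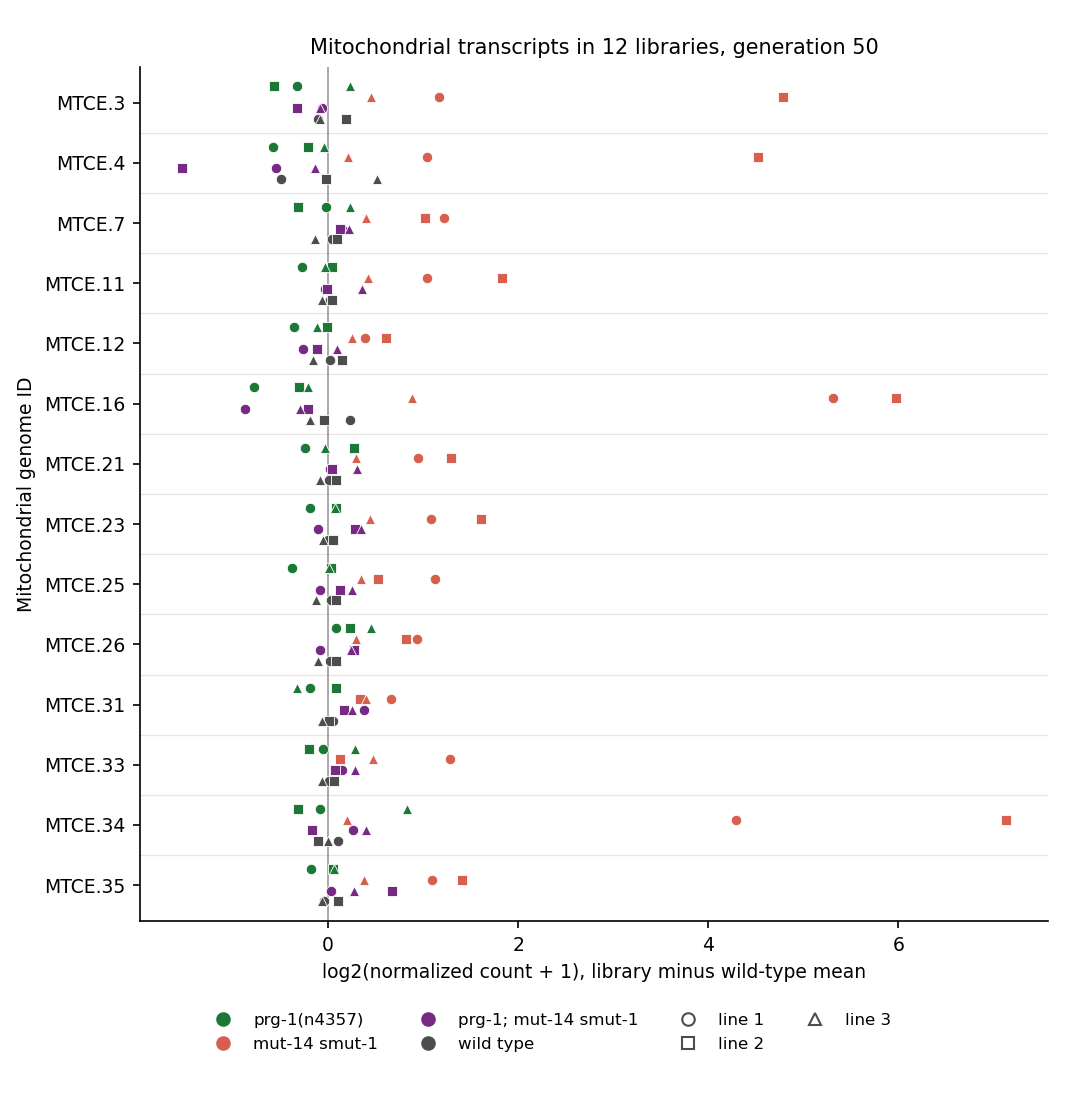
Generation 50: log2(value + 1) of each line minus the wild type mean, for the 14 tested mitochondrial IDs. Colours stand for genotypes and marker shapes for lines 1, 2 and 3; mut-14 smut-1 lines 1 and 2 reach 5.32 and 7.14, line 3 reaches 0.89, and the prg-1, triple mutant and wild type lines scatter around 0.

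MTCE.3, MTCE.4, MTCE.16 and MTCE.34 were grouped after their values were seen, so their shares describe that choice and are not a test of it. In mut-14 smut-1 line 1, MTCE.16 and MTCE.34 were 5.32 and 4.29 above the wild type mean on the log2 scale. MTCE.3 and MTCE.4, at 1.17 and 1.04 there, were near the median of 1.09 over the tested IDs. Together they made up 2.196%, 9.18% and 0.256% of the sum of the 12 shared IDs in mut-14 smut-1 lines 1, 2 and 3, against 0.245%, 0.227% and 0.247% in the wild type lines. In prg-1 lines they made up 0.210%, 0.164% and 0.293%, and in triple mutant lines 0.237%, 0.1703% and 0.218%. Line 3 of mut-14 smut-1 lay within the range of the other genotypes. At generation 1 the same share was between 0.0999% and 0.187% in all 12 libraries, without a genotype standing apart. In wild type polyA-selected RNA it was 1.62%, 1.60% and 1.59%, against 0.950%, 1.04% and 1.04% in total RNA. Shares of wild type libraries thus differed between the separately normalized tables as well.

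The mut-14 smut-1 lines 1 and 2 carried most of the generation 50 result. In line 1, 2 of 14 IDs were more than 2 above the wild type mean on the log2 scale, in line 2 there were 4 and in line 3 none, whereas over all rows tested the share was 9.55%, 9.25% and 10.6%. Line 2 also differed in some other respects. Its correlations with the other lines of its group were 0.919 and 0.943. Its value for the nuclear rRNA gene rrn-2.1 was 146782, against 1117967 to 2180578 in the other 11 libraries. For rrn-3.1 it was lowest by less, at 383473, against 545570 in prg-1 line 1, the next lowest. For rrn-1.1 its 104646 was above the 86304 of prg-1 line 1. MTCE.3 and MTCE.4 were 2 of 6 rows that were at least 8-fold higher in line 2 than in every other library. Such rows numbered 4 each in mut-14 smut-1 line 3 and prg-1 line 1 and 3 in triple mutant line 2, none of them mitochondrial. Without line 2, 11 IDs were called, 9 of them also called with it, and the median difference was 0.74. Without line 1, 5 IDs were called, and without wild type line 3, 4. Without both lines 1 and 2, a setting chosen after the data were seen, none was called and the median difference was 0.39; that lone line is then assumed to vary as the other groups do. Fitted with mut-14 smut-1 and the wild type alone in the model, the same differences gave no call.

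In prg-1 lines at generation 50 the differences from the wild type lay between -0.43 for MTCE.16 and 0.26 for MTCE.26. limma called none of 14 IDs and none had an unadjusted p under 0.05, while 11.2% of all rows were called. The difference was -0.0037 ± 0.2208 (SE) for ctb-1 (MTCE.21), with 41910, 59960 and 48468 in prg-1, against 49906, 52529 and 46821 in the wild type. The widest interval was that of MTCE.34 (0.15 ± 1.21, SE), with 342, 291 and 644 in prg-1, against 388, 337 and 362 in the wild type. That SE is pooled over the 4 genotypes, the mut-14 smut-1 lines included; with prg-1 and the wild type alone in the model it was 0.279 (limma adjusted p = 0.762). Only 1 ID was lower without overlap, which 15.9% of all rows were.

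The medians over the 14 IDs in triple mutant lines 1, 2 and 3, relative to the wild type mean, were -0.04, 0.06 and 0.25. In the triple mutant against mut-14 smut-1 all 14 differences were negative with a median of -0.72, against -0.01 over all rows, but 1 was called, while 0.545% of all rows were called lower and 1.95% in either direction. The called ID was MTCE.16, with 82.5, 131 and 123.2 in the triple mutant, against 6063, 9606 and 281 in mut-14 smut-1 (-4.52 ± 0.96, SE; limma adjusted p = 0.0385). Unadjusted p was under 0.05 for 12 IDs, and 9 were lower without overlap, which 12.4% of all rows were. For ctb-1 (MTCE.21) the triple mutant had 50338, 51281 and 61294, against 95742, 121942 and 61153 in mut-14 smut-1 (-0.72 ± 0.22, SE; limma adjusted p = 0.101). Here mut-14 smut-1 line 3 lay within the range of the triple mutant. The count was 12 without that line, and 0 when any other library of the 2 groups was left out or when the model held only these groups.

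In the triple mutant against prg-1 limma called no ID (1 with an unadjusted p under 0.05; 0.71% of all rows called). That ID was MTCE.31, also the 1 ID higher without overlap (9.71% of all rows), with 41968, 36267 and 38479 in the triple mutant, against 28322, 34208 and 25662 in prg-1 (0.41 ± 0.13, SE; limma adjusted p = 0.303). The prg-1 effect in the mut-14 smut-1 background minus that in the wild type was negative for all 14 IDs, with a median of -0.76 against -0.03 over all rows. None was called by limma, 6 had an unadjusted p under 0.05, and 4.59% of all rows were called; without mut-14 smut-1 line 3, 7 were called.

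Nuclear genes for mitochondrial proteins were also compared at generation 50. Of 16328 rows tested, 2695 were called higher and 1843 lower in mut-14 smut-1 against the wild type. In mut-14 smut-1 against the wild type, none of 70 mitochondrial ribosomal protein genes rose and 3 fell, 3 of 14 complex I genes rose, and 1 each of 9 complex III and cytochrome c genes and 7 complex IV genes rose; none of 5 complex II and 11 ATP synthase genes was called, and 1 of 15 TCA cycle genes rose. The complex I gene lpd-5 averaged 3684 ± 1165 in mut-14 smut-1, against 2063 ± 89.8 in the wild type (SD, n = 3 each; 0.79 ± 0.19, SE; limma adjusted p = 0.0115). The mitochondrial ribosomal protein gene mrpl-50 averaged 1492 ± 225 in mut-14 smut-1, against 2100 ± 202 in the wild type (SD, n = 3 each; -0.50 ± 0.13, SE; limma adjusted p = 0.0184). As at generation 1, the cytochrome c gene cyc-2.2 was higher, with 222 ± 65.6 in mut-14 smut-1, against 42.6 ± 49.8 in the wild type (SD, n = 3 each; 3.05 ± 0.73, SE; limma adjusted p = 0.0121).

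The mitochondrial RNA polymerase gene rpom-1 was not called, with 2306 ± 347 in mut-14 smut-1, against 2040 ± 201 in the wild type (SD, n = 3 each). Of 11 upkeep, transcription and translation factors, 1 fell: twnk-1, the homologue of the mitochondrial DNA helicase Twinkle, averaged 20.9 ± 9.56 in mut-14 smut-1, against 75.8 ± 8.12 in the wild type (SD, n = 3 each; -1.89 ± 0.39, SE; limma adjusted p = 0.00662), although at generation 1 it was higher in mut-14 smut-1 (1.28, limma adjusted p = 0.00381). Among 11 genes of the mitochondrial stress response and quality control, 3 fell. They included atfs-1, the transcription factor of the mitochondrial unfolded protein response, which averaged 1314 ± 79.3 in mut-14 smut-1, against 2194 ± 323 in the wild type (SD, n = 3 each; -0.73 ± 0.13, SE; limma adjusted p = 0.00345). It was also lower at generation 1, with 849 ± 42.0 in mut-14 smut-1, against 1174 ± 98.8 in the wild type (SD, n = 3 each; limma adjusted p = 2.19e-05). In prg-1 against the wild type at generation 50, 2 genes of the nuclear mitochondrial lists were called and none of the 70 ribosomal protein genes, while 11.2% of all rows were called. For twnk-1 the mean was 27.6 ± 9.49 in prg-1, against the same wild type lines (SD, n = 3; -1.48 ± 0.39, SE; limma adjusted p = 0.0351), although at generation 1 it was higher in prg-1 as well (1.48, limma adjusted p = 0.00221). The complex III gene ucr-2.3 averaged 4499 ± 620.3 in the prg-1 lines, against 3115 ± 45.6 in those of the wild type (SD, n = 3 each; 0.52 ± 0.14, SE; limma adjusted p = 0.0351).

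The tissue markers at generation 50 moved less uniformly. In mut-14 smut-1 against the wild type 19 of 31 tested msp genes rose, and the sum of the 35 listed was 6399 to 18493 in mut-14 smut-1, against 45.0 to 8510 in the wild type. In prg-1 against the wild type 14 msp genes rose and the sum was 8733 to 22590. Of 8 oocyte and eggshell markers 6 fell in mut-14 smut-1, with sums of 82527 to 105190 in mut-14 smut-1, against 130020 to 155580 in the wild type. Body wall muscle markers summed to 70990 to 85986 in mut-14 smut-1, against 62653 to 92510 in the wild type, with 1 of 8 higher. Intestine markers summed to 593210 to 1231500 in mut-14 smut-1, against 1001500 to 1750500 in the wild type, with a median difference of -0.74 over the list, of which 1 of 9 was called higher and none lower. Of 6 germline markers 1 rose and 2 fell. The part of these markers in the mitochondrial result was not tested.

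Small RNA mapped to mitochondrial IDs was sparse. At generation 1 a single read was counted over the 11 libraries, of MTCE.25 in a wild type library. None of the 12 IDs was therefore tested. In these libraries 3 counts correspond to 1.42 to 13.4 per 1000000 reads, and in those of the wild type and prg-1 to 1.42 to 2.31. The generation 50 sums of these genotypes, given below, were higher, at 13.1 and 10.5. The counting method is not given, so the near absence of reads at generation 1 cannot be told apart from the way rows were counted. Its cause was not tested. At generation 50, 10 of 11 listed IDs were above 0 and 8 were tested, on 91 to 318 mitochondrial reads per library. Their sum was 10.5 ± 1.36 per 1000000 reads for prg-1 and 32.1 ± 10.9 in mut-14 smut-1, with 24.7 ± 3.75 for the triple mutant, against 13.1 ± 2.24 in the wild type (SD, n = 3 each). All 8 tested IDs were higher in mut-14 smut-1 than in the wild type, without overlap between groups. Of all rows tested, 52.8% were called higher, 78.7% in either direction, and 57.9% were higher without overlap. MTCE.12, MTCE.16 and MTCE.31 reached the level for a test only through mut-14 smut-1 and triple mutant lines. MTCE.21 and MTCE.35 reached it in some wild type or prg-1 lines, but in too few for a test without the mut-14 smut-1 and triple mutant lines. The direction of all these IDs was therefore partly set by that filter. The untested MTCE.23 averaged 3.09 in mut-14 smut-1, against 2.59 in the wild type. MTCE.34, also untested, averaged 0 in mut-14 smut-1, against 0.397 in the wild type.

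The 4 IDs with the highest mean small RNA values were as follows. MTCE.25 had 91.3, 101.5 and 62.2 in mut-14 smut-1, against 24.0, 28.8 and 21.0 in the wild type (1.73 ± 0.45, SE; limma adjusted p = 0.00427). MTCE.26 had 69.5, 78.3 and 61.0 in mut-14 smut-1, against 22.97, 26.1 and 16.2 in the wild type (1.65 ± 0.24, SE; limma adjusted p = 8.73e-05). In both IDs each mut-14 smut-1 line stood well above the wild type lines. MTCE.21 (ctb-1) had 42.7, 42.0 and 19.1 in mut-14 smut-1, against 12.5, 4.68 and 11.5 in the wild type (1.77 ± 0.43, SE; limma adjusted p = 0.00314), and MTCE.11 had 36.7, 29.0 and 22.7 in mut-14 smut-1, against 14.1, 15.4 and 9.46 in the wild type (1.13 ± 0.35, SE; limma adjusted p = 0.0113).

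These increases depended on what the libraries were scaled to. The normalized miRNA total was 6233228 to 9435631 in mut-14 smut-1, against 2684254 to 2996685 in the wild type. Per 1000000 miRNA counts, the mitochondrial sum was 22.0 ± 4.12 for prg-1 and 43.1 ± 16.5 in mut-14 smut-1, with 29.4 ± 4.55 for the triple mutant, against 33.1 ± 5.34 in the wild type (SD, n = 3 each), and the mut-14 smut-1 lines, at 50.0, 54.9 and 24.2, lay on both sides of the wild type lines. Scaled to miRNA totals, a setting chosen after the data were seen, none of 7 tested IDs was called, and MTCE.11 turned to -0.16 (limma adjusted p = 0.734). This scaling moved the median difference over all rows to -0.70, in place of 0.66, and left 15.7% of the called rows higher, in place of 67%. With edgeR on the recovered reads 6 of 8 IDs were called higher.

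**Figure D5:**
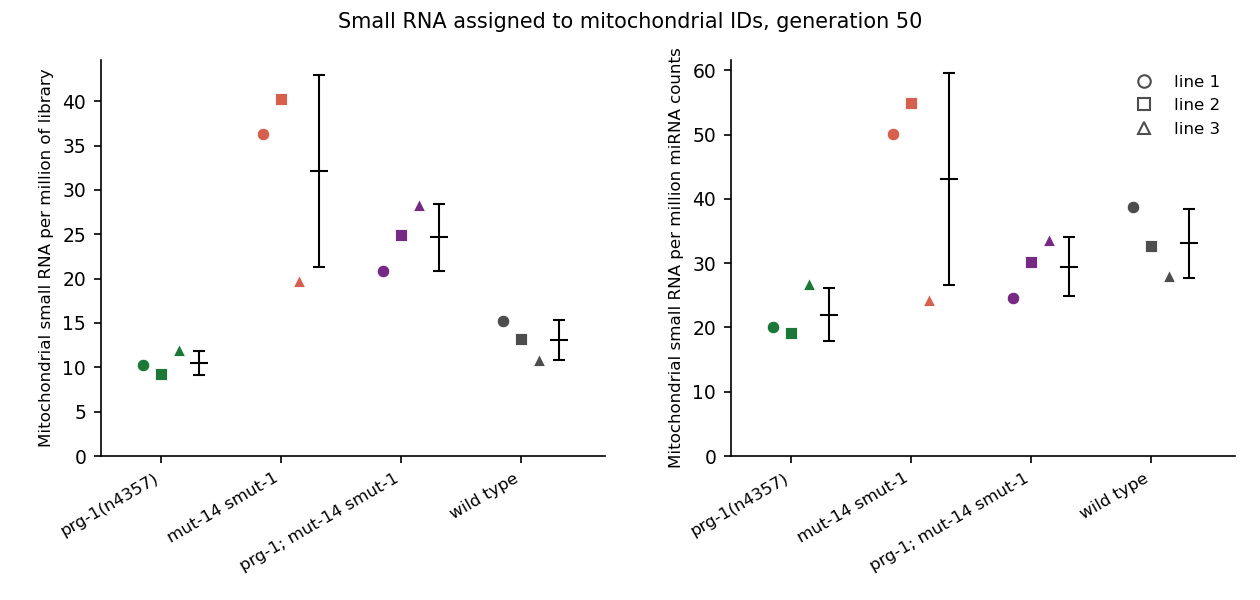
Summed mitochondrial small RNA at generation 50, per 1000000 reads of the library and per 1000000 miRNA counts; points are lines and bars the mean ± SD of 3 lines. Per 1000000 reads, mut-14 smut-1 and the triple mutant lie above prg-1 and the wild type, and per 1000000 miRNA counts mut-14 smut-1 line 3, at 24.2, lies below the wild type lines.

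In prg-1 against the wild type no small RNA ID was called by limma or edgeR, with none under an unadjusted p of 0.05 in limma, while 78.7% of all rows were called. In the triple mutant against mut-14 smut-1 none was called by either tool, again with none under an unadjusted p of 0.05 in limma, while 54.6% of rows were called; MTCE.26 was lower without overlap, which 51.5% of rows were. In the triple mutant against prg-1 4 of 8 IDs were higher, while 11.4% of all rows were called higher and 28.4% in either direction. edgeR also called 4, 3 of them the same IDs. Those called by limma included MTCE.12 and MTCE.16, which reached the level for a test only through mut-14 smut-1 and triple mutant lines. Also called was ctb-1 (MTCE.21), which would not have been tested without those lines. MTCE.26 had 51.2, 45.5 and 50.9 in the triple mutant, against 20.9, 25.9 and 36.3 in prg-1 (0.84 ± 0.24, SE; limma adjusted p = 0.0227), and ctb-1 (MTCE.21) had 12.8, 26.7 and 24.4 in the triple mutant, against 8.38, 5.55 and 6.86 in prg-1 (1.44 ± 0.43, SE; limma adjusted p = 0.0266). Neither pair of groups overlapped. Scaled to miRNA totals none of these was called. The prg-1 effect did not differ between backgrounds for any ID by limma or edgeR (1 with an unadjusted p under 0.05 in limma; 52.9% of all rows called). Whether small RNA was counted by strand is not given, so sense and antisense small RNA cannot be told apart.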

How the data were processed

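Per the labels' protocols, RNA over 200 nt was depleted of rRNA and made into mRNA libraries with directional kits, not labelled by library, and small RNA libraries held polyphosphatase-treated RNA of 16 to 30 nt. The unit of all deposited values is signal, read counts per row that the authors normalized. The small RNA values show scaling by 1 factor per library. In mRNA libraries 62.4% to 87.3% of values lay near whole multiples of 1 such factor, which shows it less clearly. The aligner, counter and build are not given in the sources used. Depths of mRNA libraries are therefore approximate. In small RNA tables whole reads were recovered (100% of values within 0.01). The design allowed for raw counts, and limma was used because the files hold normalized values.

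Values were taken as log2(value + 1). Rows with a value of 10 in at least 3 libraries were tested, which left 14570, 14618 and 16328 rows in the polyA, generation 1 and generation 50 mRNA tables and 10968 in generation 50 small RNA, after 158 second entries were dropped from each mRNA table. Each table was fitted whole in limma 3.58.1 (R 4.3.3; lmFit, eBayes with trend), with a mean for every group, and p-values were adjusted by Benjamini and Hochberg's method, with calls under 0.05, in 16 contrasts with tested members. The fits were tested on simulated data. edgeR 4.0.16 was run on recovered small RNA reads. Tables were handled in Python 3.11.15 with pandas 2.3.3.

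Named were all tested mitochondrial IDs in mRNA, the 4 with the highest mean in small RNA, and from each nuclear list up to 2 called genes each way by smallest p, of which a selection is printed. Members, lists and tests were chosen with earlier results of these data known. Alternatives were median-ratio scaling, library totals, totals without mitochondrial and rRNA rows, no filter, a pseudocount of 10, a replicate block, only the compared groups, and leaving out each library. After seeing the data, scaling to miRNA totals and leaving out mut-14 smut-1 lines 1 and 2 were added. The floor of 3 counts in small RNA covers counting error only; each SD and SE is taken from the spread between libraries. No sequence is printed.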

Additional observations from a re-analysis of the deposited data

How the results depend on the processing

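Counts below are of called mitochondrial IDs, with the reported count in brackets. With library totals they were 2 (1) in generation 1 prg-1 against the wild type, 1 (0) in the generation 1 difference of prg-1 effects and 1 (0) in that of generation 50; with totals without mitochondrial and rRNA rows, 2 (1), 1 (0), and 4 (1) in the generation 50 triple mutant against mut-14 smut-1. Without a filter the generation 1 triple mutant against prg-1 gave 4 (8). With only the compared groups, generation 50 mut-14 smut-1 against the wild type gave 0 (10), the triple mutant against mut-14 smut-1 0 (1), and small RNA of the triple mutant against prg-1 2 (4). Without mut-14 smut-1 lines 1 and 2 those first 2 contrasts gave 0 and 0. Scaled to miRNA totals, small RNA gave 0 (8) for mut-14 smut-1 against the wild type and 0 (4) for the triple mutant against prg-1, and MTCE.11 was -0.16 in place of 1.13. A pseudocount of 10 gave 1 (0) in the small RNA difference of prg-1 effects. The cause was not tested in any of these.

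With the replicate block the generation 50 triple mutant against mut-14 smut-1 gave 0 (1), the generation 1 triple mutant against prg-1 6 (8) and small RNA of the triple mutant against prg-1 3 (4), and the other contrasts kept their counts. The labels link same-numbered samples by number alone, and whether they were processed together is not given. Deviations were correlated over 0.1 in 1 of 3 such pairs of the polyA comparison and 1 of 18 at generation 1. They were in 6 of 18 pairs at generation 50 and 1 of 18 in small RNA. The highest correlations were 0.294, 0.12, 0.328 and 0.125, in that order. Leaving out 1 library gave 4 to 6 IDs in the polyA comparison. At generation 1 it gave 0 to 3 in prg-1 and 2 to 5 in mut-14 smut-1 against the wild type, 0 to 0 and 4 to 9 in the triple mutant against mut-14 smut-1 and prg-1, and 0 to 1 for the difference. At generation 50 these ranges were 0 to 0, 4 to 13, 0 to 12, 0 to 0 and 0 to 7, and in small RNA 0 to 1, 7 to 8, 0 to 1, 0 to 4 and 0 to 1. Of single ID results, 1190 kept call and direction over the other settings, 54 lost a call, 17 gained one and 1 reversed; leaving out libraries, 1114 kept both, 67 lost and 37 gained a call. Over all rows, calls in generation 50 mut-14 smut-1 against the wild type were 1900 with only the compared groups in place of 4538, and those of the polyA comparison 4529 with the replicate block in place of 2368. Library totals moved the share of called rows that were higher to 50.3% (33.7%) in the polyA comparison, at generation 1 to 62.7% (44.4%) in prg-1 and 61.6% (48.8%) in mut-14 smut-1 against the wild type and to 61.6% (47.7%) in the triple mutant against prg-1, and at generation 50 to 41.6% (72.1%) in the triple mutant against mut-14 smut-1, where the median over all rows became -0.14 (-0.01). edgeR was not run on mRNA, whose whole reads could not be recovered, and the compared-groups fit was not run for differences of effects. Depth limited generation 50 small RNA, with 91 to 318 mitochondrial reads per library.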
